A study of Mus musculus with 5 samples.

Results

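The genes described here are 10 core antioxidant genes of the mouse: the cytosolic superoxide dismutase Sod1, catalase (Cat), the glutathione peroxidases Gpx1 and Gpx4, the peroxiredoxins Prdx1, Prdx2, Prdx5 and Prdx6, thioredoxin (Txn1) and its cytosolic reductase Txnrd1. They were taken by symbol, through the Ensembl gene ID of each row, and all 10 had a row among the 55364 gene rows of each count table. The RNA came from invariant natural killer T (iNKT) cells, innate-like T cells whose receptor recognises lipids on CD1d, sorted from liver by CD1d tetramers carrying PBS57 and by T cell receptor beta. All mice were wild-type C57BL/6 males. Healthy mice received PBS (2 libraries). HCC mice received 1 intraperitoneal injection of diethylnitrosamine (DEN), a liver carcinogen, at 25 mg/kg and 15 days of age, and are labelled as having hepatocellular carcinoma (3 libraries). Livers were taken at 38 to 42 weeks. The comparison of HCC with healthy libraries is of cells from the liver as a whole, and the labels do not say whether they lay in tumour or in surrounding tissue. The design text counts 2 healthy and 3 HCC mice, but the tables of HCC 2 and HCC 3 share the number 2 in their names, so that it cannot be told whether both came from 1 mouse.

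Superoxide made by mitochondria and by NADPH oxidases is turned into hydrogen peroxide by superoxide dismutases. Catalase, glutathione peroxidases and peroxiredoxins then remove the peroxide. Glutathione peroxidases draw electrons from glutathione, most peroxiredoxins from thioredoxin, and both cycles are paid for with NADPH, through glutathione reductase and thioredoxin reductase. T cells use low levels of hydrogen peroxide as a signal after receptor engagement, and the liver is a tissue with a high peroxide load. The transcription factor NRF2, held back by KEAP1, drives many of these genes through the antioxidant response element of their promoters.

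Total counts ran from 1718452 to 2224356 per library, and 10861 to 13229 genes had a count. Levels are in CPM, counts scaled to a library total of 1000000, so that 3 counts, the limit that a count of 0 allows, correspond to 1.35 to 1.75 CPM. Healthy 1 stood apart: it had the fewest genes with a count, and its Pearson r with the others, across genes, was 0.764 to 0.816, against up to 0.904 between other libraries (genes are not independent replicates). Summed markers of T cells and iNKT cells were at 5663 CPM in healthy 1 and 7450 to 8443 CPM in the other libraries. This sum is weighted towards Trbc2 (1323 CPM in healthy 1, 1806 to 2391 elsewhere) and Id2 (869 CPM, 1783 to 2152 elsewhere). Of 14 such markers tested, healthy 1 was the lowest library in 8 and the highest in 2, Cd3g and Slamf6. Klrb1c reached 382 CPM in healthy 1 but 5.49 CPM in healthy 2, while HCC libraries ranged from 20.9 to 465 CPM. Erythroid markers summed to 2787 to 2975 CPM in healthy and 7392 to 17100 CPM in HCC libraries, and hepatocyte markers to 60.7 to 61.5 and 87.6 to 731 CPM. In bulk RNA, fewer cells of a type and less RNA per cell cannot be told apart.

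Gpx1, Gpx4 and Txnrd1 encode selenoproteins, in which a TGA codon inside the reading frame is read as selenocysteine, the residue that does the chemistry. Their coding sequences around this codon, from GENCODE M21 transcripts (mm10), are shown because they identify the members and because that of Gpx4 is nearly the same in another gene row. The genes lie at chr9:108338903-108340343 (Gpx1), chr10:80047166-80056439 (Gpx4) and chr10:82833951-82897712 (Txnrd1), and the processed pseudogene Gpx4-ps2 lies at chr10:45875291-45876086, all on the plus strand. Capitals mark the selenocysteine codon, which is codon 47 of 201 in Gpx1, 73 of 197 in Gpx4 and 498 of 499 in Txnrd1, and the matching bases of the pseudogene.
Gpx1: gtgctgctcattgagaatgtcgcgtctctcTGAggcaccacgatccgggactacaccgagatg
Gpx4: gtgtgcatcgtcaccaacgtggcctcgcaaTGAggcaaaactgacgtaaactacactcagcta
Gpx4-ps2: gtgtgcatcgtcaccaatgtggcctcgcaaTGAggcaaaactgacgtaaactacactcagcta
Txnrd1: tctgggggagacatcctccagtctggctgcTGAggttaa
Within this window Gpx4-ps2 differs from Gpx4 only by C18T, counted from 1 at the 5′ end of the window. Over 762 aligned bases up to the 3′ end of the pseudogene's longer transcript, 2 bases differed, and the last of them lay 297 bases from the end.

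No member passed the test between HCC and healthy livers. Of 8468 genes tested with edgeR's quasi-likelihood test, 0 were called at an adjusted p under 0.05 in either direction (0% of genes tested), and 307 had an unadjusted p under 0.05 (3.63%). All 10 members passed the filter on low counts and were tested. Every one had an adjusted p of 0.99985 and 0 had an unadjusted p under 0.05, with 4 fitted higher and 6 lower in HCC. The median log2 fold change of the members was -0.05, beside 0.00 for all genes tested. The p-values measure the spread between these libraries alone, part of which may be technical.

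The groups overlapped in every member. The 3 HCC libraries were all higher than the 2 healthy ones in 1084 of the tested genes (12.8%) and all lower in 462 (5.46%). Neither was so in any of the 10 members (0 and 0). After TMM scaling of the libraries the counts over all genes were 895 (10.6%) and 715 (8.44%), and again 0 and 0 of the members. In CPM, all HCC libraries lay between the 2 healthy ones in 4 members, Gpx1, Prdx2, Prdx5 and Txn1, an arrangement found in 17% of tested genes (1442). The fold in CPM between the 2 healthy libraries exceeded that between the highest and the lowest HCC library in 7 of 10 members, with medians of 2.33 and 1.49. Over all tested genes with both folds defined (8447) this was so in 49.6%, and the medians were 2.00 and 2.01. Healthy 1 was the lowest library in 6 members and the highest in 1, where it was lowest in 43.1% and highest in 18.8% of tested genes. After TMM scaling it was lowest in 5 members and highest in 4.

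**Figure D1:**
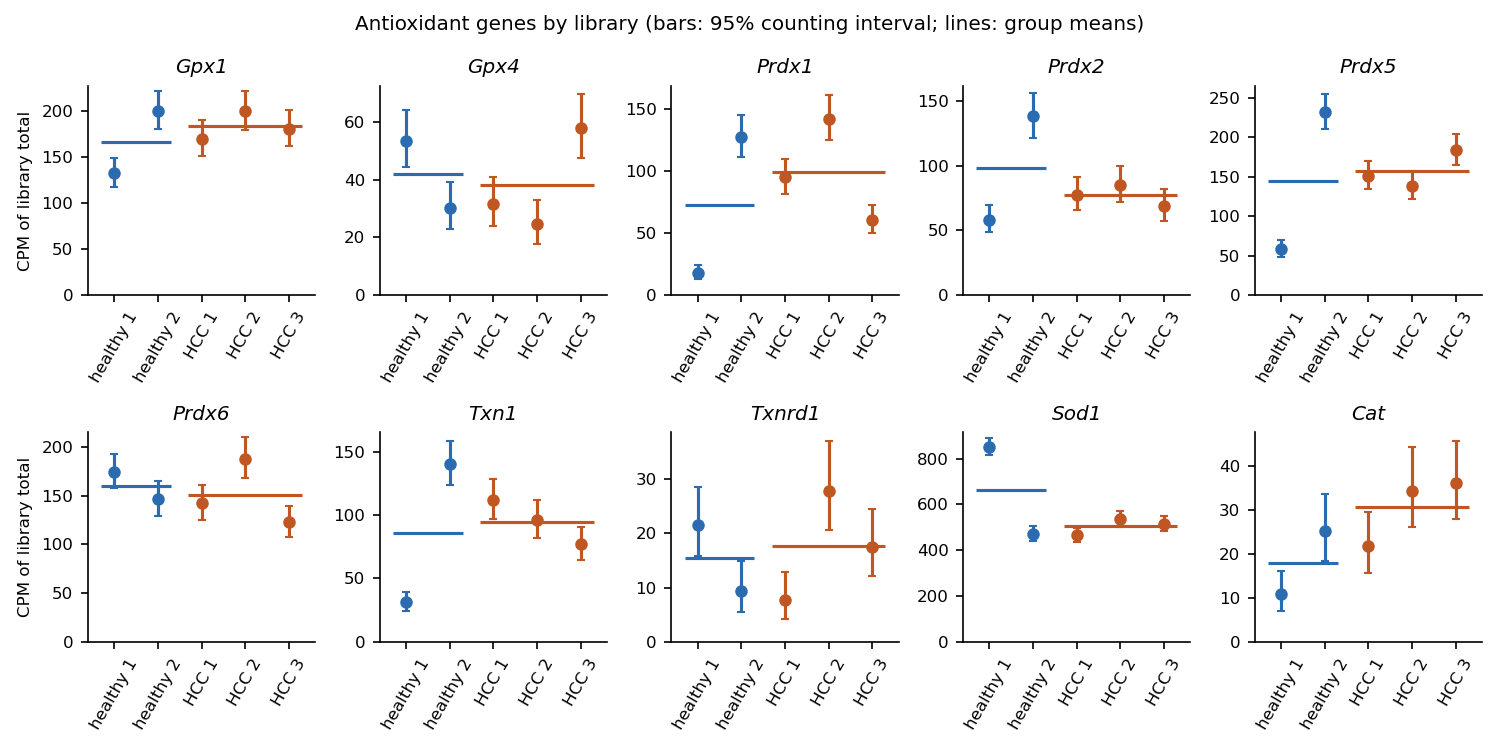
CPM of each of the 10 antioxidant genes in each library, with blue for the 2 healthy and orange for the 3 HCC libraries; points are libraries, bars 95% Poisson counting intervals and horizontal lines group means. No gene has all orange points on one side of both blue points, and in Prdx1, Prdx5 and Txn1 healthy 1 (18.0, 58.4 and 31.02 CPM) lies below the other 4 libraries.

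Sod1 is the copper and zinc enzyme that turns superoxide into hydrogen peroxide in the cytosol. Its level was 852.4 CPM in healthy 1 and 470.9 CPM in healthy 2, and 464.2, 534.2 and 513.8 CPM in HCC 1, 2 and 3. Healthy 1 was the high library, and healthy 2 lay inside the range of the HCC libraries. The log2 fold change was -0.63 (SE 0.40, 95% interval -1.52 to 0.27, unadjusted p = 0.148 in edgeR), the most negative value of the members. Without healthy 1 it was 0.07, and without healthy 2 it was -1.05 with an edgeR adjusted p of 0.0876. The mitochondrial dismutase Sod2 went from 16.6 CPM in healthy 1 to 70.3 CPM in healthy 2, with 51.2, 101.8 and 39.3 CPM in HCC libraries. For Sod2, healthy 1 was thus the low library, where for Sod1 it was the high one.

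Cat, the peroxisomal enzyme that splits hydrogen peroxide without a reductant, had the most positive fitted fold change of the members. It was at 10.8 and 25.2 CPM in healthy libraries and at 21.8, 34.3 and 36.1 CPM in HCC 1, 2 and 3, from 24 to 68 counts per library. HCC 2 and HCC 3 lay above both healthy libraries, and HCC 1 lay below healthy 2. The means were 18.0 ± 10.2 CPM (SD, n = 2) and 30.7 ± 7.81 CPM (SD, n = 3), and the log2 fold change was 0.64 (SE 0.54, 95% interval -0.56 to 1.85, unadjusted p = 0.259 in edgeR). It stayed positive, between 0.25 and 1.22, when each library in turn was left out. Catalase is abundant in red cells and hepatocytes. Hepatocyte markers summed to 87.6, 340 and 731 CPM and erythroid markers to 7392, 17100 and 15385 CPM in HCC 1, 2 and 3, and their part in the Cat level was not tested.

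Gpx1, the main glutathione peroxidase of the cytosol, reduces hydrogen peroxide. It was at 132.6 and 200.3 CPM in healthy and at 169.8, 199.6 and 181.0 CPM in HCC libraries. The HCC libraries lay within 1.18-fold of each other and between the 2 healthy ones. The log2 fold change was -0.02 with a 95% interval of -0.77 to 0.74, and it was 0.14 when libraries were scaled by their totals only.

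Gpx4 reduces lipid hydroperoxides inside membranes and protects cells from ferroptosis. Its row was at 53.5 and 30.2 CPM in healthy and at 31.6, 24.4 and 57.9 CPM in HCC libraries, so that the highest and the lowest library were both HCC in CPM. After TMM scaling healthy 1, at 64.5, lay above HCC 3, at 57.9. 3′ libraries are read near the transcript end, and 90.2% of the words of 31 bases there (the final 300 bases) also occur in Gpx4-ps2, the pseudogene whose window is printed beside it above. The row of the pseudogene held more counts than the row of the gene in all 5 libraries, 507 and 201 in healthy and 283, 182 and 361 in HCC, beside 119 and 55, and 58, 42 and 109, for Gpx4. The Gpx4 row thus held 17.0 to 23.2% of the sum. Summed, the pair was at 281 and 141 CPM in healthy and at 186, 130 and 249 CPM in HCC libraries, and the groups overlapped as they did for the Gpx4 row alone. Reads of the gene and of the pseudogene cannot be told apart over most of this end.

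**Figure D2:**
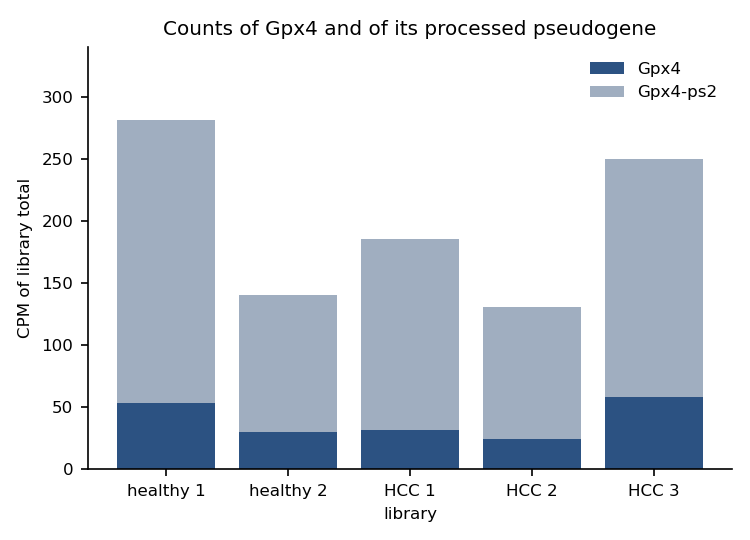
Stacked bars of the CPM of the Gpx4 row (dark) and of the Gpx4-ps2 row (light) in each library, with the axis starting at 0. The Gpx4 row is 17.0 to 23.2% of each bar, and the summed bars of the HCC libraries, 130 to 249 CPM, overlap those of the healthy ones, 141 and 281 CPM.

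Peroxiredoxins reduce peroxides with a reactive cysteine. In CPM, 3 of the 4 among the members, all but Prdx6, had a larger fold between the healthy libraries than among the HCC libraries. Prdx3, which is not a member, did not (1.96-fold between healthy and 2.08-fold among HCC libraries). Prdx1, a cytosolic enzyme recycled by thioredoxin, had a level of 18.0 CPM in healthy 1, 127.3 CPM in healthy 2, and 94.7, 142.0 and 60.5 CPM in HCC 1, 2 and 3. The 7.08-fold gap between the healthy libraries rests on 40 and 232 counts, whose 95% Poisson intervals are 12.8 to 24.5 and 111 to 145 CPM, while the HCC libraries spanned 2.35-fold. Its log2 fold change was 0.36 (SE 0.64), with a 95% interval of -1.08 to 1.80. It was -0.41 without healthy 1 and 2.15 without healthy 2, in which case the edgeR adjusted p was 0.0627. Of the words at its 3′ end, 44.3% are shared with pseudogenes, but their rows held at most 18 counts in any library.

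Prdx2, the close cytosolic relative of Prdx1 and an abundant protein of red cells, was at 58.4 and 138.3 CPM in healthy and at 77.8, 85.0 and 69.0 CPM in HCC libraries. All HCC libraries lay between the healthy ones in CPM, and the log2 fold change was -0.48 (95% interval -1.37 to 0.41). After TMM scaling, HCC 3 at 69.0 was below healthy 1 at 70.5. The erythroid marker sum was at least 7392 CPM in the HCC and at most 2975 CPM in the healthy libraries, and its part in the Prdx2 level was not tested. Part of the last 300 bases of Prdx2 (122 bases of exon) overlaps Junb on the opposite strand. Junb held 114 and 99 counts in healthy and 170, 156 and 150 in HCC libraries. Whether the counting used strand was not given in the sources used here, so reads from this stretch cannot be told apart.

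Prdx5, a peroxiredoxin of mitochondria, peroxisomes and cytosol, was at 58.4 and 231.6 CPM in healthy and at 151.3, 138.5 and 183.7 CPM in HCC libraries. The healthy libraries differed 3.96-fold and the HCC libraries 1.33-fold. Its log2 fold change was 0.04 (95% interval -1.05 to 1.13), with -0.57 without healthy 1 and 1.15 without healthy 2. Prdx6, which reduces phospholipid hydroperoxides and uses glutathione rather than thioredoxin, was at 174.4 and 146.0 CPM in healthy and at 142.0, 188.0 and 122.6 CPM in HCC libraries. For Prdx6 both the highest and the lowest library were HCC in CPM, and the log2 fold change was -0.30 (95% interval -1.12 to 0.51). After TMM scaling Prdx6 was at 210.3 and 140.9 in healthy and at 136.7, 167.8 and 122.6 in HCC libraries, with healthy 1 the highest. Prdx3, the mitochondrial peroxiredoxin, was at 28.8 and 56.5 CPM in healthy and at 66.4, 49.5 and 31.8 CPM in HCC libraries, which overlapped too.

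Txn1, the small dithiol protein that recycles peroxiredoxins and ribonucleotide reductase, had the pattern of Prdx1 and Prdx5 in the healthy libraries. It was at 31.02 and 140.5 CPM in healthy and at 112.1, 96.0 and 77.0 CPM in HCC libraries. The healthy libraries differed 4.53-fold and the HCC libraries 1.46-fold, and all HCC libraries lay in between. The log2 fold change was 0.06 (95% interval -1.11 to 1.23), with -0.59 without healthy 1 and 1.32 without healthy 2. Txnrd1, the flavoenzyme that reduces Txn1 with NADPH, was measured on 14 to 48 counts per library, at 21.6 and 9.3 CPM in healthy and at 7.6, 27.9 and 17.5 CPM in HCC libraries. For Txnrd1, healthy 1 was above healthy 2, the reverse of Txn1. Its log2 fold change of -0.08 had the widest 95% interval of the members, -1.68 to 1.53.

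**Figure D3:**
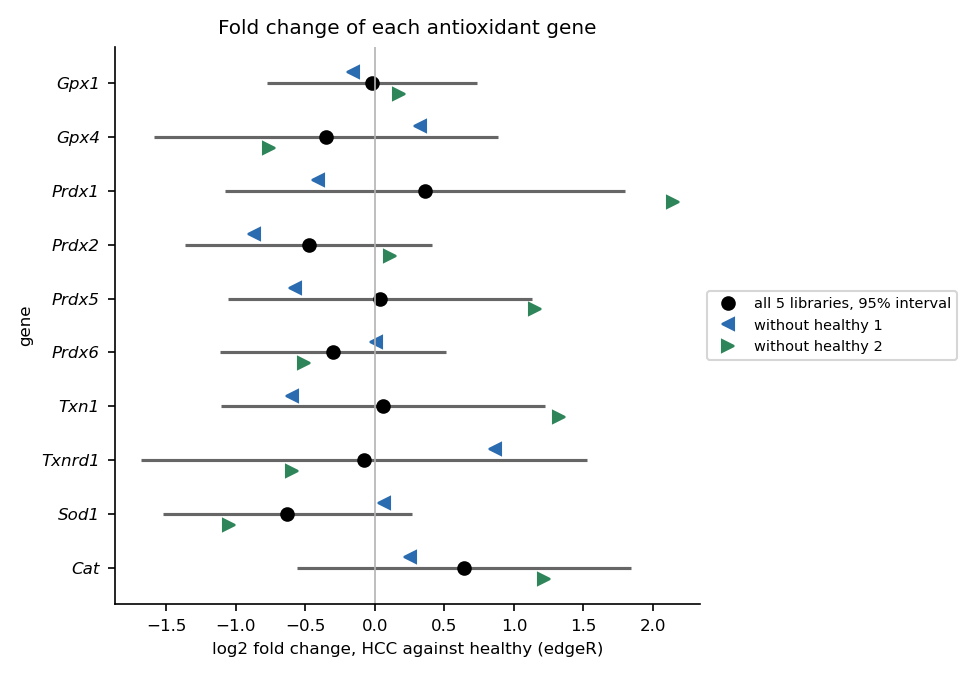
Log2 fold change of HCC against healthy libraries from edgeR for each of the 10 genes; black points and bars are the estimate and 95% interval from all 5 libraries, blue triangles the estimate without healthy 1 and green triangles that without healthy 2. Every bar crosses 0, and the triangles of Prdx1 lie at -0.41 and 2.15.

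The sign of most members' fold changes differed with the healthy library that was left out. Without healthy 1 the log2 fold change of 7 members had the opposite sign from that with all libraries. The share of all tested genes that changed sign was not computed. All HCC libraries lay below the remaining healthy library, healthy 2, in 4 members, Gpx1, Prdx2, Prdx5 and Txn1, and above it in 0. Of the 9590 genes tested in that fit, 23.1% lay below in this way (2218) and 23.1% above (2212). Without healthy 2, all HCC libraries lay above healthy 1 in 6 members, Gpx1, Prdx1, Prdx2, Prdx5, Txn1 and Cat, and below it in 1, Sod1. Of the 9755 genes tested in that fit, 43% lay above in this way (4192) and 22.4% below (2182). In that fit, where the spread of the single healthy library was taken from the HCC group, edgeR called 102 genes higher and 94 lower, none of them a member. Prdx1, Prdx5, Txn1 and Sod1 had an unadjusted p under 0.05 there, as had 2048 of the genes tested. Without healthy 1 the one such member was Prdx2, among 368 genes.

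The promoters of the members were searched for the core of the antioxidant response element, TGACNNNGC, on both strands, from 250 bases before to 50 bases after each start site in RefSeq (GRCm38.p6). There were 14 such windows for 9 members. A match was found in 3 of these windows, 1 each of Prdx1, Txnrd1 and Sod1, and in 12.4% of all 32851 promoter windows of this length. Counted by gene, 3 of 9 members and 14% of the 27025 genes in the table had a window with a match. In Prdx1 the letters are those of the stricter form TGACTCAGC, the same core with its N positions fixed, which 0.454% of all windows match. The windows, each on the plus strand with the match in capitals as its reverse complement, are chr4:116685446-116685494 for Prdx1, chr10:82859094-82859142 for Txnrd1 and chr16:90220686-90220734 for Sod1. The match ends 125, 84 and 48 bases before the start site. They are shown because they are all the matches found in windows of the members.
Prdx1: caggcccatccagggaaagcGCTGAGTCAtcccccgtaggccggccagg
Txnrd1: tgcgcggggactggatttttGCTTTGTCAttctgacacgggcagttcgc
Sod1: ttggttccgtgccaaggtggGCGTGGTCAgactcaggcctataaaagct
A match describes the letters only. In healthy 1, Prdx1 was the lowest of the 5 libraries while Sod1 was the highest. Txnrd1 in healthy 1 lay second to HCC 2 in CPM, but after TMM scaling it was above HCC 2 (26.0 against 24.9).

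The genes that supply and recycle the cofactors of these enzymes were examined as lists, and 0 genes of any list were called. Over all genes tested, 50.3% were fitted higher and 49.7% lower in HCC. Of 12 other genes of the thioredoxin and glutaredoxin system 11 were tested, with 5 fitted higher, 6 lower and a median log2 fold change of -0.40. One of them, Txnrd2, the mitochondrial thioredoxin reductase, had an unadjusted p under 0.05 (0.00922 in edgeR). Txnrd2 had 0 and 2 counts in healthy and 26, 23 and 15 in HCC libraries, which is 0 and 1.10 CPM, and 14.1, 13.4 and 8.0 CPM. The groups did not overlap, and all HCC libraries were likewise the higher ones in 12.8% of tested genes. The ratio of pooled counts was 23.8 (exact 95% interval for counting error 6.33 to 201). Txnrd2 passed the filter on low counts only through the HCC libraries, so its p and this ratio are partly set by that entry. It did not pass the adjusted test, and its cytosolic counterpart Txnrd1 overlapped between groups.

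Of 9 genes of glutathione synthesis and recycling 4 were tested, 2 fitted higher and 2 lower. Gclm, the modifier subunit of the enzyme that limits glutathione synthesis, was at 3.6 and 126 CPM in healthy and at 47.3, 83.8 and 38.2 CPM in HCC libraries. Its 35.1-fold gap between the healthy libraries was in the same direction as those of Prdx1, Prdx5 and Txn1. The catalytic subunit Gclc, singled out after its values were seen, was at 1.3 and 1.1 CPM in healthy and at 9.3, 11.1 and 3.7 CPM in HCC libraries, with an unadjusted edgeR p of 0.0793. Gclc passed the filter on low counts only through HCC libraries. Gss, of the same list, went the other way, with 11 and 10 counts in healthy and 2, 0 and 0 in HCC libraries. Gss did not pass the filter and was not tested. Ggct, which breaks down gamma-glutamyl peptides, overlapped at 15.4 to 22.5 CPM in healthy and 15.2 to 23.9 CPM in HCC libraries. Slc7a11, the cystine carrier, had 0 counts in every library.

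Among 16 glutathione S-transferases 8 were tested, 4 fitted higher and 4 lower with a median of -0.04. Gsta3, an enzyme abundant in hepatocytes, had an unadjusted p under 0.05 (0.0347 in edgeR), with 0 counts in both healthy libraries and in HCC 1 and with 15 and 24 counts in HCC 2 and 3. Gsta3 passed the filter on low counts only through HCC 2 and 3, so its p is partly set by that entry. The libraries with Gsta3 were those with the highest hepatocyte marker sums, 340 and 731 CPM, and the part of hepatocyte RNA in it was not tested. Of 11 genes of NADPH supply 9 were tested, 3 higher and 6 lower. Taldo1, of the pentose phosphate pathway, was at 223 and 263 CPM in healthy libraries and at 239, 297 and 189 CPM in HCC libraries. Pgls, of the same pathway, was at 160 and 91.7 CPM, and at 71.3, 114 and 73.8 CPM.

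NRF2, its inhibitor and other target genes gave 6 tested genes of 11, with 5 fitted higher, 1 lower and a median of 0.49. Sqstm1, a selective autophagy receptor that binds KEAP1, was at 151.5 and 180.6 CPM in healthy and at 266.6, 232.2 and 264.9 CPM in HCC libraries. Its groups did not overlap in CPM, and all HCC libraries were likewise the higher ones in 12.8% of tested genes. The log2 fold change of 0.45 (SE 0.34) had an unadjusted edgeR p of 0.224. Keap1 was at 28.8 and 33.5 CPM in healthy and at 34.3, 69.8 and 28.7 CPM in HCC libraries. Nqo1, a classical NRF2 target, had 0 counts in all libraries, and Hmox1 had counts in healthy 2 alone, at 1.10 CPM.

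Of 14 other selenoproteins and factors of selenocysteine insertion 12 were tested, 3 fitted higher and 9 lower with a median of -0.48. In CPM, healthy 1 was the highest library in 5 of these 12 and the lowest in 5. Over all tested genes it was highest in 18.8% and lowest in 43.1%. Selenow, a small selenoprotein, was at 176.7 and 71.9 CPM in healthy and at 83.3, 55.3 and 69.0 CPM in HCC libraries, with a log2 fold change of -1.09 (SE 0.49, unadjusted p = 0.0516 in the edgeR fit over all genes). Selenop, the plasma selenium carrier, overlapped at 31.02 and 80.7 CPM, and 47.9, 81.5 and 71.7 CPM. Of 6 repair genes 4 were tested, 1 higher and 3 lower, among them Park7 (DJ-1) at 65.3 to 85.9 CPM in healthy and 52.0 to 100.1 CPM in HCC libraries. Nudt1, which clears oxidised nucleotides, was at 39.6 and 30.7 CPM, and at 14.1, 31.4 and 16.5 CPM. Of the other 10 peroxidases and dismutases 3 were tested, all fitted higher with a median of 0.38, and of 6 NADPH oxidase subunits 4 were tested, 3 higher and 1 lower. Rac2, the small GTPase of the oxidase, was at 586 and 518 CPM in healthy and at 603, 681 and 690 CPM in HCC libraries, with a log2 fold change of 0.05. Its groups did not overlap in CPM, with HCC higher as in 12.8% of tested genes. After TMM scaling, however, healthy 1, at 707, lay above all HCC libraries (581 to 690). Cyba, a membrane subunit, overlapped at 131 to 210 CPM in healthy and 152 to 193 CPM in HCC libraries.

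**Figure D4:**
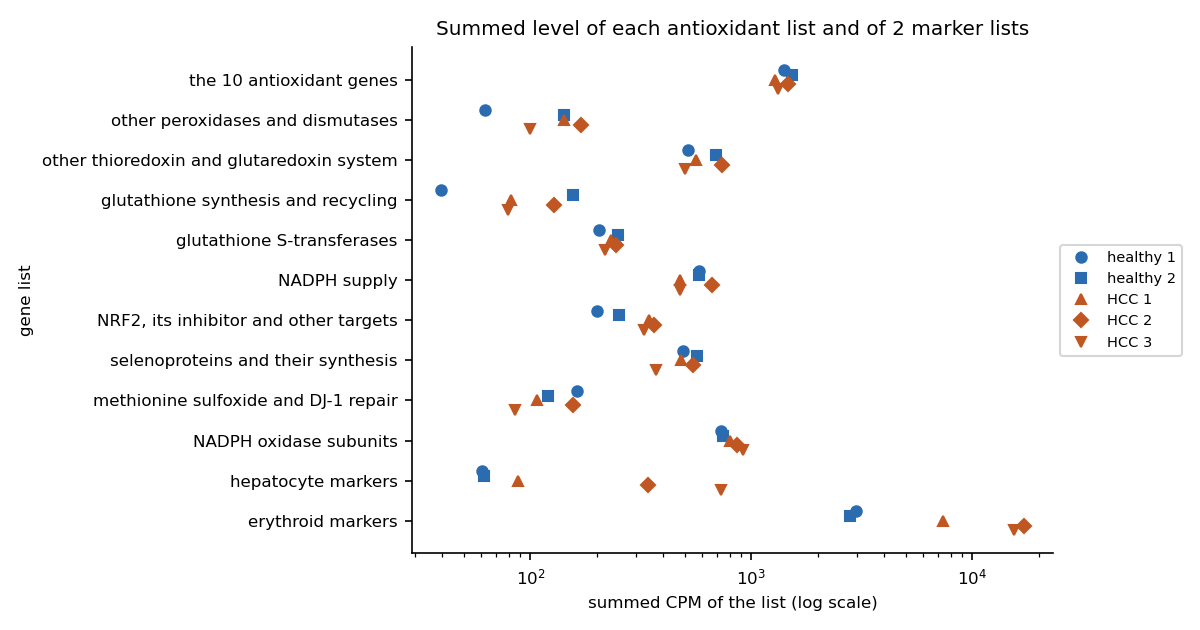
Summed CPM of each antioxidant list and of hepatocyte and erythroid markers in each library, on a log axis, blue for healthy and orange for HCC. The 10 antioxidant genes sum to 1273 to 1520 CPM with the groups overlapping. In both marker lists the orange points all lie to the right of the blue ones. The same holds for NRF2, its inhibitor and other targets (200.5 and 250.8 CPM in healthy, 327.5 to 364.3 CPM in HCC libraries). It also holds for NADPH oxidase subunits (729.7 and 747.6 CPM in healthy, 798.8 to 913.5 CPM in HCC libraries). These sums are weighted towards Sqstm1 and Rac2.

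Summed over the 10 members, the level was 1411 and 1520 CPM in healthy and 1273, 1470 and 1319 CPM in HCC libraries, a 1.19-fold range over all 5. The sum is weighted towards Sod1, and single members varied over a wider range. A p above the threshold does not show that the levels were the same.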

How the data were processed

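RNA of sorted liver iNKT cells was made into 3′ libraries with a QuantSeq kit for Ion Torrent, per the labels' protocols. The authors deposited unnormalised gene counts, 1 table per library with rows named by Ensembl ID. The submitters' processing notes name HISAT2, Bowtie2, bcl2fastq, DESeq, DESeq2, edgeR and limma without roles, and the build mm10. The counting program, annotation and strand setting are not given in the sources used here. Reads rather than molecules were counted, so intervals cover counting error only. Symbols came by gene ID from GENCODE M21 (55104 of 55364 rows). Rows of pseudogenes held 31.7 to 38.5% of counts, and rows without a symbol 0.763 to 1.08%.

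Counts were tested in R 4.3.3 with edgeR 4.0.16 (filterByExpr by group, TMM, quasi-likelihood F test, Benjamini-Hochberg adjustment over 8468 genes, threshold 0.05). A check on simulated counts required recovery of changed genes only at a spread far below that of these libraries. It does not show the power to detect a change here. TMM factors were 0.830 and 1.04 for healthy and 1.04, 1.12 and 1.00 for HCC libraries. No pair of libraries was a duplicate. Alternatives used DESeq2 1.42.0 and limma 3.58.1, among others. Shared sequence is the percentage of words of 31 bases, within 300 bases of a transcript's end, that another gene also holds. From each other list the text names genes with an unadjusted p under 0.05 (at most 4), or else the 2 with the highest mean CPM. Genes named beyond that rule (Gclc, Gss, Slc7a11, Nqo1, Hmox1) were chosen after their values were seen. The members and lists were chosen with earlier results of these data known.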

Additional observations from a re-analysis of the deposited data

How the results depend on the processing

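With all 5 libraries in the fit, 0 members were called in every alternative run: DESeq2 size factors, library totals only, no filter on low counts, at least 10 CPM in 2 libraries, the DESeq2 Wald test, limma-voom, the replicate block, HCC 2 and 3 summed, protein-coding genes only, and members summed with rows that share their 3′ sequence. Over all genes, edgeR called 29 higher and 24 lower with no filter, DESeq2 called 9 higher and 0 lower (432 at an unadjusted p under 0.05), and limma-voom called 0 (208). Leaving out each library in turn gave 0 to 102 genes higher, 0 to 94 lower and 0 members called. Members with all HCC libraries above the healthy ones then numbered 0 to 6, and those below 0 to 4, where 17.7 to 43% and 9.77 to 23.1% of all genes did. The highest counts came from leaving out a healthy library. On TMM levels, a scale added after seeing the data, both counts were 0. The replicate block gave 3 genes higher and 0 lower, and put Prdx1 at a log2 fold change of 1.02 (from 0.36) and Gpx4 at -0.76 (from -0.35). limma-voom put Prdx1 at 0.77. The deviations of same-numbered libraries correlated at 1e-04 and 0.1242. With 2 healthy libraries the healthy deviations mirror each other, so these values cannot show whether the numbers pair the samples.

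Library totals only moved the median of all genes to a log2 fold change of 0.16. With that scaling Gpx1 was at 0.14 and Txnrd1 at 0.19, with signs opposite to the TMM fit. Gpx1 was at 0.02 with no filter and at 0.00 in DESeq2, and Prdx5 at -0.01 with protein-coding genes only. Over fits without 1 library each, log2 fold changes ran from -0.16 to 0.18 (Gpx1), -0.83 to 0.32 (Gpx4), -0.41 to 2.15 (Prdx1), -0.87 to 0.11 (Prdx2), -0.57 to 1.15 (Prdx5), -0.51 to 0.01 (Prdx6), -0.59 to 1.32 (Txn1), -0.60 to 0.87 (Txnrd1), -1.05 to 0.07 (Sod1) and 0.25 to 1.22 (Cat). Cat alone kept its sign in every alternative. Of 150 member values under alternatives, 132 kept the direction and 18 did not; the cause was not tested.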
